A study of Homo sapiens with 6 samples.

Results

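The heat shock proteins examined here are 10 genes chosen by symbol: HSPA1A, HSPA1B, HSPA8, HSPH1, HSP90AA1, HSP90AB1, DNAJB1, HSPB1, BAG3 and HSPD1. All 10 had a row among the 21519 genes of the co-culture table, and 9 had a row among the 9450 genes of the knockdown table, where HSPA1A was not analysed. They were followed in DLD1, an established human colorectal cancer cell line, in 4 expression libraries and in the m7G peaks. The first pair of libraries is S-CAFs-w13, from genotype WT DLD1 cells grown beside S-CAFs, set against DLD1-W13CM, also WT and taken to be the co-culture with CAFs by elimination. CAFs are fibroblasts of the tumor, and the series title speaks of senescent ones. The title DLD1-W13CM names no fibroblast, so another kind of culture is possible. The second pair is input RNA of DLD1 cells with stable METTL1 knockdown (sh2), set against control cells (sh-NT), each with an immunoprecipitate (IP) in which an antibody pulled down RNA fragments carrying 7-methylguanosine (m7G). METTL1 is the methyltransferase that, with WDR4, places m7G inside tRNAs and some other RNAs. Each group is 1 library and the knockdown is 1 construct, so no difference given here has a replicate check. The series text mentions replications here, while 1 input and 1 IP library of each line were analysed.

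Heat shock proteins are chaperones that keep other proteins folded. HSP70 proteins hold unfolded stretches, J proteins such as DNAJB1 bring clients to them and start their ATP cycle, nucleotide exchange factors such as HSPH1 and BAG3 make them let go, and HSP90 finishes the folding of kinases and receptors. When unfolded protein builds up in the cytosol, the transcription factor HSF1 binds heat shock elements, repeats of GAA and TTC, in front of these genes. Unfolded protein in the endoplasmic reticulum instead raises that compartment's own HSP70 and HSP90, HSPA5 and HSP90B1, through ER stress response elements. HSPD1, the HSP60 chaperonin, works in the mitochondrial matrix, so 9 of the 10 genes code for cytosolic proteins and HSPD1 does not.

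The promoters show both kinds of element. The 250 bases before the RefSeq start (GRCh38.p14) are printed for the pair of inducible HSP70 genes, for DNAJB1 and HSPA8, the highest and the lowest of the 10 by fold between the co-culture libraries, and for both endoplasmic reticulum relatives. Capitals mark GAANNTTC or TTCNNGAA in the first 4 and the ER stress response element, CCAAT and CCACG with 9 bases between them on either strand, in the last 2.
HSPA1A (chr6:31815293-31815542, plus strand): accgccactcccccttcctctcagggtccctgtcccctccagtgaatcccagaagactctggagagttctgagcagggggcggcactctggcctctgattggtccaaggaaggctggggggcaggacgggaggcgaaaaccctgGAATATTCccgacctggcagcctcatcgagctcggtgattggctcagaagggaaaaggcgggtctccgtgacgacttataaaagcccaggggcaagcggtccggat
HSPA1B (chr6:31827488-31827737, plus strand): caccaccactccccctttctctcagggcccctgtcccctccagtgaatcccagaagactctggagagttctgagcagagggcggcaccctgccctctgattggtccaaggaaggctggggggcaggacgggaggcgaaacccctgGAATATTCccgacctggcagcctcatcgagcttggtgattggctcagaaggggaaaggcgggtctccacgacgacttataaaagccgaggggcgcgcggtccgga
DNAJB1 (chr19:14518398-14518647, minus strand): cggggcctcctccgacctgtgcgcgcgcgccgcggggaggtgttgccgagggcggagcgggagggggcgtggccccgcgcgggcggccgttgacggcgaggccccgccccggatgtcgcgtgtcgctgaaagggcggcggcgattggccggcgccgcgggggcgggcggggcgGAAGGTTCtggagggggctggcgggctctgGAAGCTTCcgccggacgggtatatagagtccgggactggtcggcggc
HSPA8 (chr11:123062137-123062386, minus strand): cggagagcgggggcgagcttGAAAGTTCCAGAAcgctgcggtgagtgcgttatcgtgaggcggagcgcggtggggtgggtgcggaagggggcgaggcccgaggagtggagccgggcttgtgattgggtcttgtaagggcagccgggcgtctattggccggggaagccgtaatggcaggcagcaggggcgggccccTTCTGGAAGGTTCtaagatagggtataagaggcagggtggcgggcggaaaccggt
HSPA5 (chr9:125241344-125241593, minus strand): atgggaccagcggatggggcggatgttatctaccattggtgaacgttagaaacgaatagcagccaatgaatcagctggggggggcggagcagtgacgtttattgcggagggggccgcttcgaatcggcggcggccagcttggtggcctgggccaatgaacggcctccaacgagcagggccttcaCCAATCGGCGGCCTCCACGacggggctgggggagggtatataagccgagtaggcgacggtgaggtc
HSP90B1 (chr12:103930160-103930409, plus strand): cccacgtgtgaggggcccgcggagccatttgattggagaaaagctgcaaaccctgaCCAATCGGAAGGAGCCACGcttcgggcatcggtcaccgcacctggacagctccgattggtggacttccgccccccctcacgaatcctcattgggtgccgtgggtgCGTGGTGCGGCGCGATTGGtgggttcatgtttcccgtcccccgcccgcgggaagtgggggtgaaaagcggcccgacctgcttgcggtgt

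All 10 genes matched a RefSeq start by symbol. Where a gene had several starts, the one nearest its m7G peak was used. The whole window searched ran from 250 bases before to 50 after the start. GAANNTTC or TTCNNGAA, each of which reads the same on both strands, stood in the windows of 7 of the 10 genes, against 13.5% of all 35116 windows. GAANNTTC extended by NNGAA, on either strand, which is 3 units in a row, stood in the windows of 3, HSPA8, HSP90AB1 and HSPD1, against 0.49% of all. The windows of HSPH1, BAG3 and HSP90AA1 had no match. A second RefSeq start of HSP90AA1 (chromosome 14, 102087044) had 3 pairs of units before it. The starts of HSP90AB1 and HSPD1 that were not used had no match. Of those of DNAJB1, the start at 14517937 had 1 pair and the start at 14529271 had 0. The ER stress response element stood in 0 of the 10 windows, once before HSPA5 and 2 times before HSP90B1, and in 0.0769% of all windows. The HSPA1A and HSPA1B sequences, shifted by 1 base, were the same at 235 of 249 positions, 94.4%. Such matches describe the letters and show no binding.

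The FPKM values (fragments scaled to gene length and to library size) come from effective library sizes of 6215547 for S-CAFs-w13, 6337932 for DLD1-W13CM, 11625162 for knockdown input and 10454179 for control input, recovered from the steps in the values. METTL1 itself stood at 3.28 FPKM in knockdown input and 5.8 FPKM in control input, 1.77-fold lower (1.37 to 2.29). Here and below the range in parentheses is a 95% counting interval of the FPKM ratio, which covers counting error only and not variation between cultures. In the co-culture table METTL1 stood at 1.78 FPKM in S-CAFs-w13 and 4.82 FPKM in DLD1-W13CM, 2.71-fold lower (1.75 to 4.29). All 8 epithelial markers passed the filter described next, with KRT8 at 1051 FPKM in S-CAFs-w13 and 754 FPKM in DLD1-W13CM. KRT19, a keratin, stood at 273 FPKM in S-CAFs-w13 and 120 FPKM in DLD1-W13CM, and CDX2, an intestinal transcription factor, at 6.83 FPKM in S-CAFs-w13 and 19 FPKM in DLD1-W13CM. Of 15 fibroblast markers 6 had a row in the co-culture table, with summed levels of 5.13 FPKM in S-CAFs-w13 and 5.51 FPKM in DLD1-W13CM. FN1 and ACTA2, the 2 that passed the filter, stood at 1.71 and 1.51 FPKM in S-CAFs-w13, against 3.12 and 1.8 FPKM in DLD1-W13CM, and they make up most of those sums. The other 4 were all under 1 FPKM and all higher in S-CAFs-w13. PDGFRB, a growth factor receptor, stood at 0.564 FPKM in S-CAFs-w13 and 0.0221 FPKM in DLD1-W13CM (at least 25 and 1 reads), and the collagen gene COL6A1 at 0.331 FPKM in S-CAFs-w13 and 0.0295 FPKM in DLD1-W13CM (at least 11 and 1 reads). The collagen gene COL1A1 stood at 0.229 FPKM in S-CAFs-w13 and 0.0482 FPKM in DLD1-W13CM, and VIM, vimentin, at 0.78 FPKM in S-CAFs-w13 and 0.489 FPKM in DLD1-W13CM. The part of such RNA in the results below was not tested. Genes of the mitochondrial genome took 34.3% of the summed FPKM in S-CAFs-w13 and 44.5% in DLD1-W13CM. That share enters the scaling of every other gene. Leaving these genes out of the scaling shifts the co-culture log2 FPKM ratios by -0.22. Values on that scaling are given for part of the results below.

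In the co-culture comparison the heat shock protein genes went in different directions. DNAJB1 and HSPH1, which help HSP70 through its cycle, were about 2-fold higher in S-CAFs-w13, HSPA8 was lower, and the HSP90 pair was nearly level. On the log2(FPKM + 1) scale, 9 of the 10 genes reached a mean level of 1 FPKM, the filter used; 1 of them was past 2-fold upward and 0 downward. Among all 14739 genes passing, the shares past 2-fold were 9.08% upward and 7.92% downward, so 1 of 9 is near the background. On the authors' scaling, which shifts each log2 ratio by -0.14, 988 genes in all were higher and 1545 lower. With no change of scaling these counts were 1338 and 1167. The median log2 ratio of the 9 was 0.13 beside 0.02 for all genes, and -0.01 beside -0.12 on the authors' scaling.

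**Figure D1:**
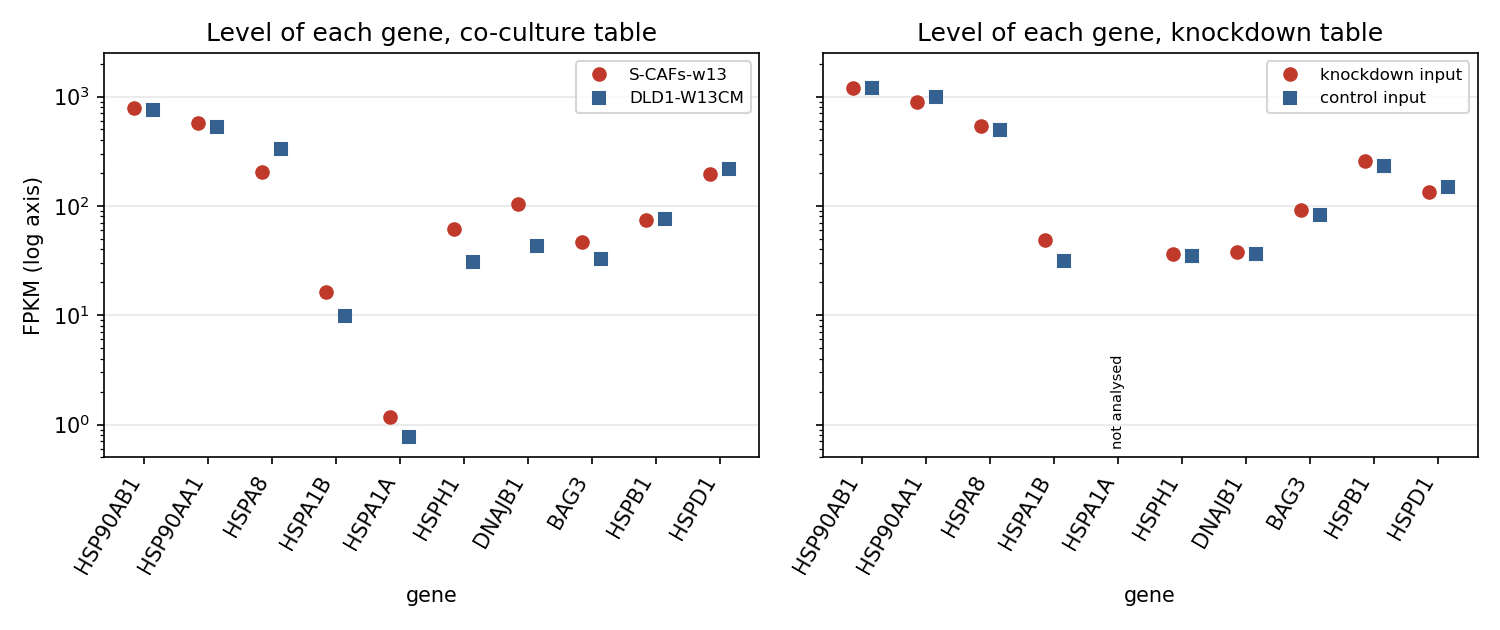
FPKM (log axis) of each gene in the co-culture table (left; S-CAFs-w13 red circles, DLD1-W13CM blue squares) and the knockdown table (right; knockdown input red circles, control input blue squares), 1 library per symbol. HSP90AB1 is at the top and HSPA1A, at 1.17 and 0.763 FPKM, at the bottom of the co-culture panel.

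The J protein DNAJB1 showed the largest change of the 10. It stood at 104 FPKM in S-CAFs-w13 and 43 FPKM in DLD1-W13CM, 2.43-fold higher (2.25 to 2.61), from at least 2382 and 1001 reads. By level it ranked 207 among the genes of S-CAFs-w13 and 589 among those of DLD1-W13CM. It was also past 2-fold on the authors' scaling and with the mitochondrial genome left out (log2 ratios of 1.12 and 1.04). Its authors' deposited log2 fold change was 1.14.

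HSPH1, the HSP110 exchange factor of HSP70, stood at 61.2 FPKM in S-CAFs-w13 and 30.5 FPKM in DLD1-W13CM. It was 2.01-fold higher (1.89 to 2.13), which is a log2 ratio of 0.98 once 1 FPKM is added and so just under the 2-fold line. The authors' deposited table gave it a log2 fold change of 0.86. BAG3, the exchange factor that links HSP70 to autophagy, stood at 46.3 FPKM in S-CAFs-w13 and 32.9 FPKM in DLD1-W13CM, 1.41-fold higher (1.26 to 1.57). These 3 helpers of HSP70 were all higher in S-CAFs-w13 under each scaling tried. Without the mitochondrial genome the log2 ratios were 0.76 for HSPH1 and 0.26 for BAG3. Other genes of these kinds went both ways. Of 6 other exchange factors passing the filter, 2 lay above 0 and 4 below (median log2 ratio -0.43). Of 10 other J proteins passing it, 4 lay above 0 and 6 below (median -0.21).

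The HSP70 genes themselves went both ways. HSPA8, the constitutive HSP70, stood at 204 FPKM in S-CAFs-w13 and 331 FPKM in DLD1-W13CM, 1.62-fold lower (1.57 to 1.67). HSPA1B, a stress-inducible HSP70, stood at 16.4 FPKM in S-CAFs-w13 and 9.76 FPKM in DLD1-W13CM, 1.68-fold higher (1.37 to 2.06), from at least 257 and 156 reads. HSPA1A, which codes for a nearly identical protein, stood at only 1.17 FPKM in S-CAFs-w13 and 0.763 FPKM in DLD1-W13CM. With at least 18 and 12 reads its fold of 1.53 (0.697 to 3.48) was not resolved at this depth, and it fell under the filter. The level of HSPA1A was 7.11% of that of HSPA1B in S-CAFs-w13 and 7.81% in DLD1-W13CM. Reads that fit both copies can be split or dropped in counting, so the level of each copy alone is uncertain. The level of DNAJB1 was 51.2% of that of HSPA8 in S-CAFs-w13 and 13% in DLD1-W13CM. Without the mitochondrial genome the log2 ratios were -0.92 for HSPA8 and 0.48 for HSPA1B. With no change of scaling they were -0.69 and 0.69, and the authors' deposited log2 fold changes were -0.84 and 0.60.

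HSP90AB1 and HSP90AA1, the constitutive and the more inducible cytosolic HSP90, were the most abundant of the 10 by FPKM. HSP90AB1 stood at 778 FPKM in S-CAFs-w13 and 753 FPKM in DLD1-W13CM, 1.03-fold higher (1.01 to 1.06), and ranked 31 in both. HSP90AA1 stood at 578 FPKM in S-CAFs-w13 and 526 FPKM in DLD1-W13CM, 1.1-fold higher (1.08 to 1.12), and ranked 40 in both. Both differences are within the shift between scalings: on the authors' scaling the log2 ratios were -0.10 for HSP90AB1 and -0.01 for HSP90AA1, and without the mitochondrial genome -0.18 and -0.09. HSPB1, the small heat shock protein HSP27 that holds unfolded proteins without ATP, stood at 75 FPKM in S-CAFs-w13 and 75.1 FPKM in DLD1-W13CM (fold 0.999, 0.903 to 1.11). The mitochondrial HSPD1 stood at 195 FPKM in S-CAFs-w13 and 218 FPKM in DLD1-W13CM, 1.12-fold lower (1.08 to 1.16). On the authors' scaling the log2 ratios were -0.15 for HSPB1 and -0.30 for HSPD1, and without the mitochondrial genome -0.22 and -0.38. HSP90AA1, HSP90AB1, HSPA8 and HSPD1 have processed pseudogenes that can take some of their reads.

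**Figure D2:**
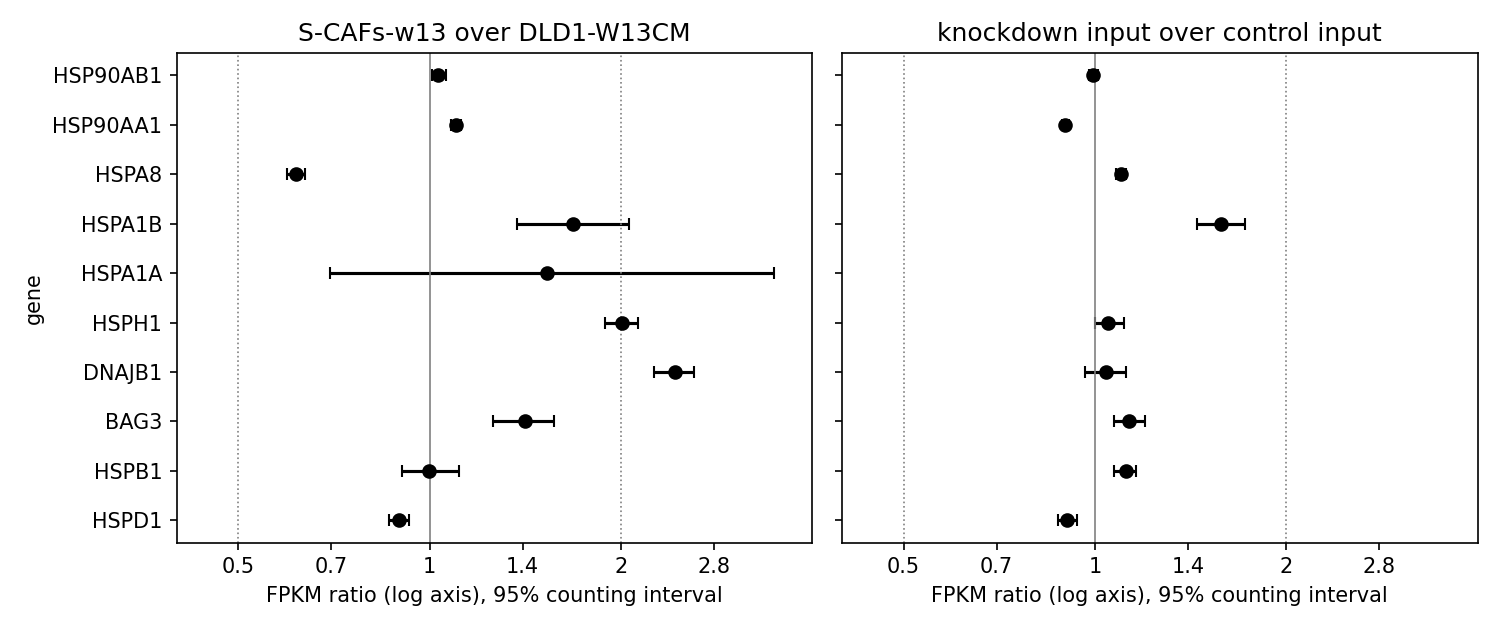
FPKM ratio (log axis) of each gene with its 95% counting interval, S-CAFs-w13 over DLD1-W13CM on the left and knockdown input over control input on the right; the solid line is no difference and the dotted lines are 2-fold. DNAJB1 at 2.43 and HSPH1 at 2.01 lie at or past the upper line on the left, and HSPA1B at 1.58 lies farthest from 1 on the right.

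Some endoplasmic reticulum chaperones had larger folds between the same libraries, 5 of 21 above the 2.43 of DNAJB1. HSPA5 stood at 1733 FPKM in S-CAFs-w13 and 165 FPKM in DLD1-W13CM, and its level relative to HSPA8 was 8.5 in S-CAFs-w13 and 0.498 in DLD1-W13CM. HSP90B1 stood at 470 FPKM in S-CAFs-w13 and 151 FPKM in DLD1-W13CM, 3.12-fold higher (3.01 to 3.22). Its level relative to HSP90AB1 was 0.604 in S-CAFs-w13 and 0.201 in DLD1-W13CM. Of 21 endoplasmic reticulum genes 6 were past 2-fold, all upward, beside 9.08% of all genes. The log2 ratio lay above 0 for 20 of the 21, beside 7710 of all 14739 genes, and its median was 0.53 beside 0.02. The 6 were HSPA5, HERPUD1 (9.69-fold), HSP90B1, MANF (2.75-fold), PDIA4 (2.47-fold) and SEL1L (2.15-fold), and on each other scaling tried 5 were, without SEL1L. DNAJC10, a disulfide reductase, and CRELD2 were nearly level, with log2 ratios of -0.01 and 0.02. HERPUD1 and SEL1L serve the removal of misfolded proteins from this compartment, PDIA4 is a disulfide isomerase and MANF a secreted stress factor. The lists were described side by side and the difference between them was not tested.

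Few other cytosolic chaperones were past 2-fold. Of 65 genes in 6 lists (other HSP70 and HSP110, J proteins, small heat shock proteins, exchange factors, co-chaperones, and the TRiC chaperonin with prefoldin) 51 passed the filter, of which 1 was past 2-fold upward and 1 downward, beside 9.08% and 7.92% of all genes. The log2 ratio lay above 0 for 14 and below 0 for 37, beside 7710 above and 7029 below among all genes. Their median log2 ratio was -0.25, -0.40 on the authors' scaling and -0.45 without the mitochondrial genome. Past 2-fold were DNAJB2, a J protein, at 3.17 FPKM in S-CAFs-w13 and 0.965 FPKM in DLD1-W13CM, and CACYBP, a co-chaperone of ubiquitin ligases, at 11.1 FPKM in S-CAFs-w13 and 23.5 FPKM in DLD1-W13CM. On the authors' scaling and without the mitochondrial genome DNAJB2 was no longer past it. Without the mitochondrial genome 2 of the 51 were past it downward, 1 of them in the TRiC and prefoldin list, and with 0.1 FPKM added in place of 1 there were also 2, 1 of them an exchange factor. Of 17 co-chaperones passing, 12 lay below 0 (median -0.30), and of 14 genes of TRiC, which folds actin and tubulin, and prefoldin, 12 lay below 0 (median -0.25). CCT2 and CCT5, subunits of TRiC, stood at 42.8 and 41.1 FPKM in S-CAFs-w13, against 77 and 61.1 FPKM in DLD1-W13CM. Among exchange factors, BAG1 stood at 1.93 FPKM in S-CAFs-w13 and 4.31 FPKM in DLD1-W13CM, and BAG4 at 17.1 FPKM in S-CAFs-w13 and 10.3 FPKM in DLD1-W13CM. HSPA14, a ribosome-bound HSP70, stood at 3.79 FPKM in S-CAFs-w13 and 6.85 FPKM in DLD1-W13CM, and HSPA4L, an HSP110, at 2.35 FPKM in S-CAFs-w13 and 2.69 FPKM in DLD1-W13CM. HSPB11 was the 1 gene of the small heat shock protein list passing the filter, at 30.8 FPKM in S-CAFs-w13 and 18.2 FPKM in DLD1-W13CM.

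The heat shock factors and other genes that HSF1 can induce were higher in part. HSF1 stood at 16.7 FPKM in S-CAFs-w13 and 10.5 FPKM in DLD1-W13CM, 1.6-fold higher (1.4 to 1.83), and HSF2 at 10.7 FPKM in S-CAFs-w13 and 6.77 FPKM in DLD1-W13CM, 1.58-fold higher (1.25 to 2.02). Of 6 other HSF1-induced genes 5 lay above 0 (median 0.35), beside 7710 of all 14739 genes (median 0.02). These folds and medians were taken from the FPKM values with no change of scaling. The log2 ratios shift by -0.14 on the authors' scaling and by -0.22 without the mitochondrial genome. Of 12 mitochondrial chaperones and proteases 0 were past 2-fold (median 0.08), beside 9.08% upward and 7.92% downward of all genes. GRPEL1 and GRPEL2, both exchange factors of mitochondrial HSP70, stood at 7.2 and 19.6 FPKM in S-CAFs-w13, against 13 and 14.1 FPKM in DLD1-W13CM.

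**Figure D3:**
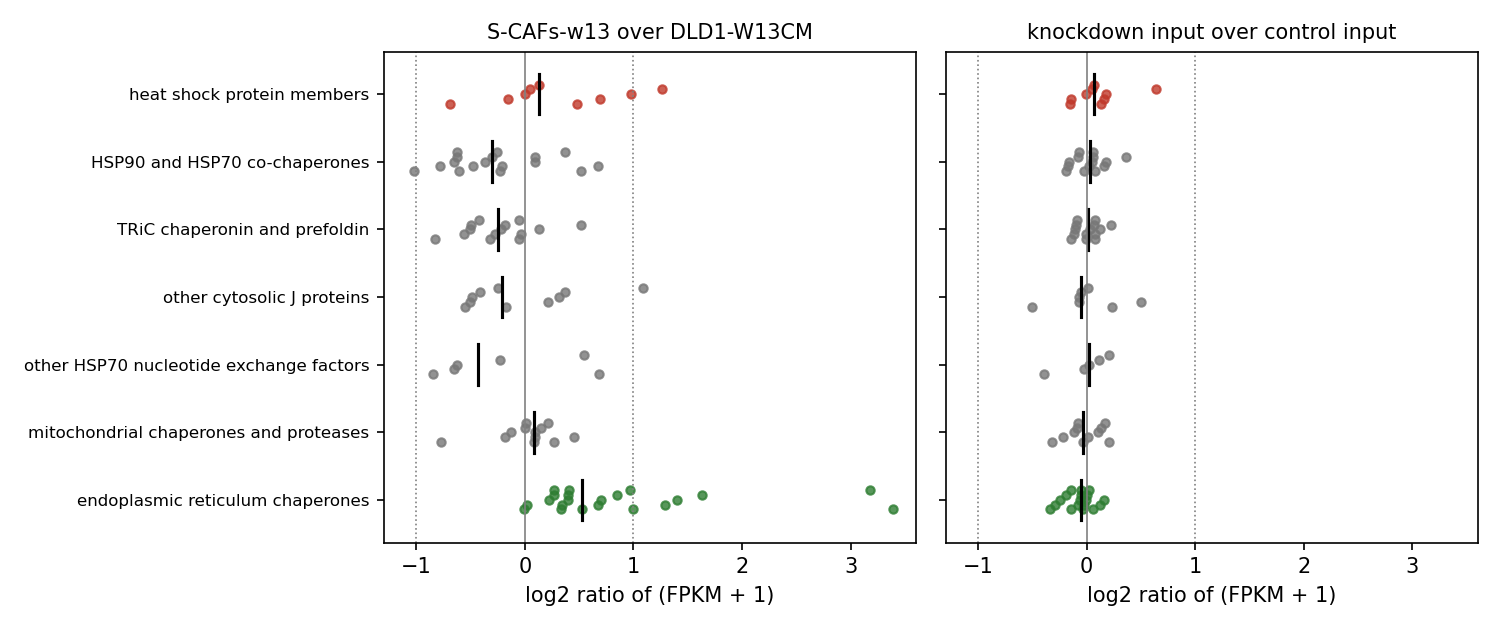
Log2 ratio of (FPKM + 1) for each gene passing the filter, by list, S-CAFs-w13 over DLD1-W13CM on the left and knockdown input over control input on the right; each point is a gene, black bars are medians, dotted lines are 2-fold. On the left the endoplasmic reticulum chaperones (median 0.53) reach past 3 while the co-chaperones (median -0.30) lie mostly below 0, and on the right every list is centred near 0.

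In knockdown input the heat shock protein genes stood close to their levels in control input, except HSPA1B. All 9 genes passed the filter and 0 were past 2-fold in either direction, beside 0.429% upward and 0.56% downward of all 8400 genes passing. Their median log2 ratio was 0.07 beside 0.01 for all genes. HSPA1B stood at 49.1 FPKM in knockdown input and 31 FPKM in control input, 1.58-fold higher (1.45 to 1.72), from at least 1438 and 818 reads. It was the highest of the 9 log2 ratios, at 0.64, and the authors' deposited log2 fold change was 0.65. HSPA1A, which can share reads with HSPA1B, had no row here, so the level of HSPA1B alone is uncertain in this pair too.

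The other 8 genes lay between 1.13-fold higher and 1.11-fold lower. HSPA8 stood at 538 FPKM in knockdown input and 491 FPKM in control input, 1.1-fold higher (1.08 to 1.12). BAG3 stood at 92.5 FPKM in knockdown input and 81.7 FPKM in control input, and HSPB1 at 258 FPKM in knockdown input and 231 FPKM in control input, 1.13-fold (1.07 to 1.2) and 1.12-fold (1.07 to 1.16) higher. DNAJB1 and HSPH1, the genes highest by fold in S-CAFs-w13, were nearly level here, DNAJB1 at 37.6 FPKM in knockdown input and 36.2 FPKM in control input (fold 1.04, 0.965 to 1.12) and HSPH1 at 36.4 FPKM in knockdown input and 34.5 FPKM in control input.

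HSP90AA1 stood at 893 FPKM in knockdown input and 994 FPKM in control input, 1.11-fold lower (1.1 to 1.13), and HSP90AB1 at 1189 FPKM in knockdown input and 1199 FPKM in control input (fold 0.992, 0.978 to 1.01). HSPD1 stood at 135 FPKM in knockdown input and 149 FPKM in control input, 1.11-fold lower (1.07 to 1.14). The order of the levels, HSP90AB1 over HSP90AA1 over HSPA8, was the same in all 4 libraries. At the other end HSPA1B, HSPH1 and DNAJB1 lay close together in this table, between 31 and 49.1 FPKM, and their order differed between knockdown and control. The 2 tables were normalized separately, so levels are not compared between them.

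The surrounding lists were as flat. Of 43 other cytosolic chaperones passing the filter 0 were past 2-fold (median 0.02, 24 above 0 and 19 below). Of 18 endoplasmic reticulum chaperones 0 were (median -0.05, 5 above 0 and 13 below). Among all 8400 genes passing, 0.429% were past 2-fold upward and 0.56% downward, so 0 is near the background for both lists. Of these 8400 genes 4297 lay above 0 and 4103 below (median 0.01). By list, the genes farthest from 0 by log2 ratio were DNAJB2 (0.50) and DNAJB4 (-0.50) among J proteins, and BAG4 (-0.39) and HSPBP1 (0.21) among exchange factors. The co-chaperone FKBP4 had a log2 ratio of -0.19. The farthest were PFDN4 (0.22) and PFDN6 (-0.14) in prefoldin, HSPA4L (0.03) and HSPA4 (0.02) among the HSP110 genes, and HSPB11 (0.26) in the small heat shock protein list. In the mitochondrion they were GRPEL1 (-0.32) and CLPX (-0.22), a protease subunit, and in the endoplasmic reticulum SEL1L (-0.34) and P4HB (-0.29), a disulfide isomerase. SERPINH1, a collagen chaperone that HSF1 can induce, stood at 14.8 FPKM in knockdown input and 22.2 FPKM in control input, and HMOX1, heme oxygenase, at 5.72 FPKM in knockdown input and 7.32 FPKM in control input. HSPA5 stood at 140 FPKM in knockdown input and 143 FPKM in control input, and HSP90B1 at 163 FPKM in knockdown input and 194 FPKM in control input. The level of HSPA5 relative to HSPA8 was 0.261 in knockdown input and 0.291 in control input. HSF2 stood at 7.61 FPKM in knockdown input and 6.34 FPKM in control input, HSBP1, an HSF1-binding protein, at 7.92 FPKM in knockdown input and 7.18 FPKM in control input, and HSF1 was not analysed there.

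The knockdown table lists 1 m7G peak for each of its 9450 genes, so all 9 genes with a row had 1 by its construction. The authors' deposited table placed 6 of them in the 5' UTR (HSPA1B, HSPA8, HSPH1, HSP90AA1, BAG3 and HSPD1) and 3 in the coding sequence (HSP90AB1, DNAJB1 and HSPB1), beside 49.5% and 29.5% of all 9450 peaks. The point given for the peak lay within 250 bases of a RefSeq start for 7 of the 9, as it did for 65.4% of the 6966 peaks whose gene matched a RefSeq start by symbol. The points of HSPH1 and HSP90AB1 lay 522 and 2151 genomic bases downstream of the start. That of HSPD1 lay at -68 bases, upstream of the start used for its promoter. The HSP90AA1 peak (chromosome 14, 102139399 to 102139699) lay by the upstream start of that gene, not by the start with heat shock units before it.

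Fold enrichment, the authors' ratio of IP to input at the peak, ranged from 1.44 to 22.6 over the 9 peaks in the authors' deposited table, with a median of 12.1 beside 12.4 for all peaks. HSPH1 (chromosome 13, 31161585 to 31162148) had the highest at 22.6, followed by HSPD1 at 20.1, HSPB1 at 14.6 and DNAJB1 at 13.5. HSP90AB1 (chromosome 6, 44250035 to 44250409), the most abundant of these mRNAs by FPKM, had the lowest, and 0.751% of all peaks were lower. HSPA1B (chromosome 6, 31827735 to 31827883), whose peak begins at the RefSeq start, had 2.96.

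The m7G change between the lines was small or unresolved for most of these peaks. The authors' deposited table does not say which line is on top of its log2 change, so each sign is read here as knockdown over control and would turn round under the other reading. That table called 2 of the 9 peaks at an FDR under 0.05, both lower, beside 5.25% of all peaks (3.07% higher and 2.18% lower). The same 2 had a p under 0.05, beside 16.1% of all peaks (8.6% higher and 7.5% lower). With 1 IP and 1 input library of each line these FDRs cannot cover variation between cultures. For HSPA1B the authors' deposited table gave -0.83 (FDR 0.0174) and for HSP90AB1 -0.12 (FDR 0.000676). Both are peaks of low enrichment, and HSPA1B is the gene whose input FPKM was 1.58-fold higher in the knockdown. Any link of these values to the m7G calls was not tested. In the authors' deposited table HSPD1 had the largest of the 9 values, 1.00, at FDR 0.676, and HSP90AA1 had 0.54 at FDR 0.67. HSPA8 (-0.23), BAG3 (0.30), HSPB1 (0.12), HSPH1 (-0.0835) and DNAJB1 (0.0115) lay at FDRs between 0.402 and 0.676 in the authors' deposited table. For the endoplasmic reticulum relatives the authors' deposited table gave 0.38 for HSPA5 (FDR 0.0102) and 0.30 for HSP90B1 (FDR 4.9e-08), both above 0.

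**Figure D4:**
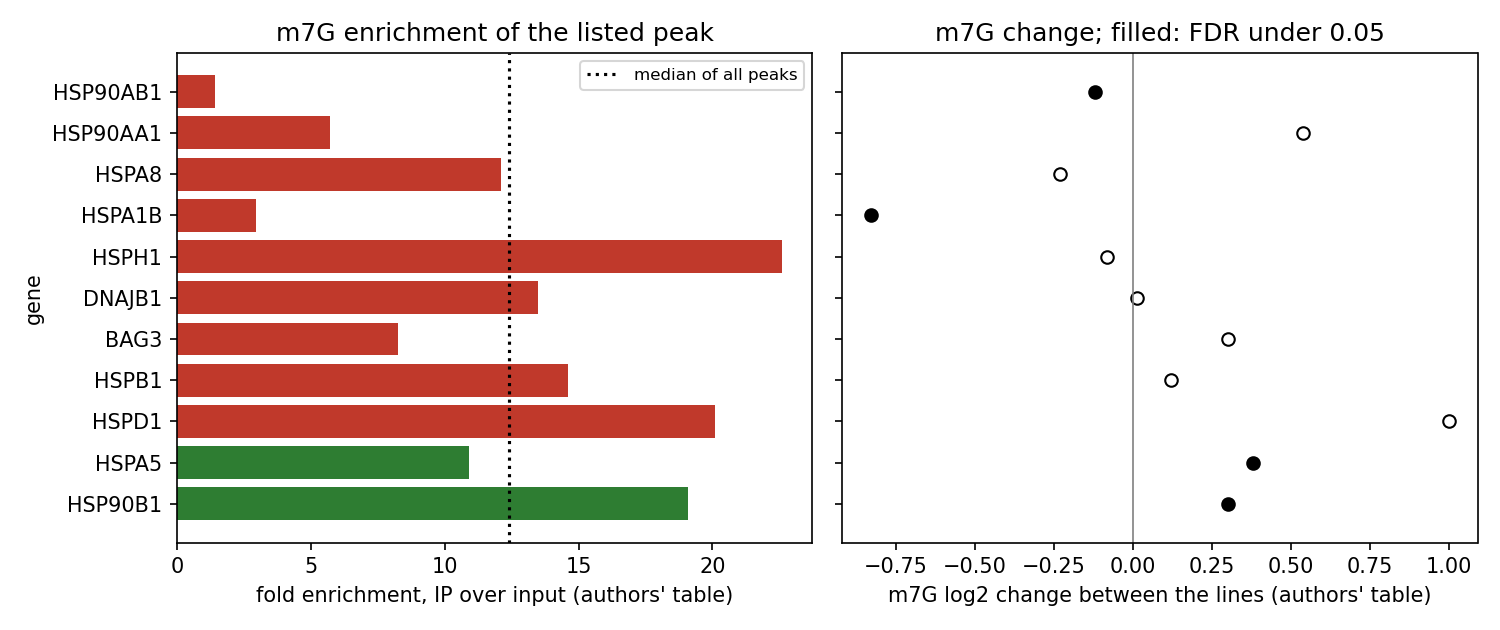
The listed m7G peak of each gene in the authors' deposited table: fold enrichment of IP over input on the left (bars from 0; the 9 heat shock protein genes red, HSPA5 and HSP90B1 green; dotted line, median of all peaks, 12.4) and the log2 change in m7G, read as knockdown over control, on the right (filled points have an FDR under 0.05). HSPA1B at -0.83 and HSP90AB1 at -0.12 are the filled points below 0.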

How the data were processed

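Co-culture and knockdown tables held FPKM values that the authors deposited, 1 library per column; for knockdown and control inputs that unit is inferred, since the values are whole reads over a whole gene length for 9292 of 9348 genes above 0 in both. Per the submitters' processing notes the tools were cutadapt 2.5, HISAT2 2.1.0, featureCounts 1.6.3, DESeq2, SAMtools 1.10 and HOMER 4.10.4, with no roles given; which tool called the m7G peaks is not given. Per the file headers the authors also deposited log2 fold changes with p-values, and for each peak a fold enrichment (a ratio), a log2 change, and the log10 of its p and FDR. Peak coordinates are on GRCh38 (hg38), one of the builds in the notes.

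Members were matched by symbol. Log2 ratios were taken after adding a pseudocount of 1 FPKM to both levels, so changes of low genes come out too small, and 2-fold was the line; genes under a mean level of 1 FPKM were left out. Folds printed without a log are FPKM ratios with nothing added. With 1 library per group no test was made. In each table the FPKM ratio was a ratio of whole numbers (relative tolerance 1e-13) times a constant for all genes above 0 in both libraries. Library sizes were those that made gene lengths whole (tolerance 1e-10), starting from RefSeq lengths of small RNAs in the co-culture table and from the lengths so recovered in the knockdown table. They gave the smallest read numbers that the values allow, and a gene whose lengths in the tables differed by a whole multiple took the longer; true numbers can be higher multiples. These gave exact (Clopper-Pearson) 95% intervals. The recovery was tested on simulated data. The genes and lists were chosen with earlier results of these data known. The rule for naming was all members, HSF1, METTL1, HSPA5 and HSP90B1, and of each list up to 6 genes past 2-fold in each direction or, with none, the 2 farthest from 0; KRT8, COL1A1, COL6A1, PDGFRB, VIM, DNAJC10 and CRELD2 were chosen after their values were seen, and 2 genes that the rule names are not reported here. Alternatives were another pseudocount, filter and scaling. Python 3.11.15, pandas 2.3.3 and SciPy 1.17.1 were used.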

Additional observations from a re-analysis of the deposited data

How the results depend on the processing

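No paired analysis was possible because each group held 1 library. With 0.1 in place of 1 FPKM added, HSPH1 joined DNAJB1, since less is added to the lower level. Then 2 of the 9 members passing the filter were at least 2-fold higher in S-CAFs-w13. That setting put 1939 of all 14739 genes passing the filter past 2-fold upward and 1777 downward in S-CAFs-w13. In the knockdown it put 103 of 8400 upward and 112 downward. With the filter at 5 FPKM, and so fewer genes, S-CAFs-w13 had 639 upward and 539 downward, and the knockdown 7 upward and 16 downward. On the authors' scaling the median log2 ratio in the co-culture comparison was -0.01 for the heat shock protein members and 0.39 for the endoplasmic reticulum chaperones. With both libraries set to the same summed FPKM outside the mitochondrial genome, a log2 shift of -0.22, these medians were -0.09 and 0.31. On that scaling 872 genes in all were past 2-fold upward and 1550 downward. Of the called m7G changes, HSPA1B would be 0.83 and HSP90AB1 0.12 if read as control over knockdown. DNAJB1 was past 2-fold under all 6 alternatives run in the co-culture table, and 0 members were past it in the knockdown under the 5 run there. Depth limits HSPA1A, with at least 18 and 12 reads, and no setting replaces the missing replicates.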
